A study of Homo sapiens with 25 samples.

Results

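Chromatin at 6 genes of the interferon, chemokine and death ligand programme that retinoic acid (RA) is known to switch on in promyelocytic leukaemia cells was described from ChIP-seq peak lists of NB4 cells. The genes were IRF1, IFIT3, TNFSF10, CCL2, ICAM1 and TNFAIP2, and every peak overlapping a fixed hg18 window around each of them was taken. The windows were chr5:131820001-131880000 for IRF1, chr10:91060001-91110000 for IFIT3, chr3:173690001-173740000 for TNFSF10, chr17:29580001-29630000 for CCL2, chr19:10220001-10270000 for ICAM1 and chr14:102640001-102690000 for TNFAIP2. They held 487 of the 918840 peaks in 23 lists. IRF1 had 139 of these peaks, TNFAIP2 89, TNFSF10 85, ICAM1 72, CCL2 60 and IFIT3 42. Transcripts were not measured in these files, so induction itself is background and not a result here.

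NB4 is a human acute promyelocytic leukaemia line that carries the PML-RARA fusion and matures towards granulocytes when given RA. Cells were treated for 24 h with DMSO, the solvent control, with the LSD1 inhibitor MC_2580, with RA at 0.01 µM or 1 µM, or with MC_2580 and RA 0.01 µM together (the combination). Histone H3 lysine 4 mono-, di- and trimethylation (H3K4me1, H3K4me2, H3K4me3) and lysine 27 acetylation (H3K27ac) were each mapped in all 5 conditions. The demethylase LSD1 was mapped with DMSO and with MC_2580, and its partner GFI1 in untreated cells. Each antibody and treatment had 1 library, so there was no replicate error, no test could be run and every difference below is between single libraries. No dose of MC_2580 appears in the labels. For the H3K4me3 combination library the title says RA 1 µM, but the treatment label and the series design say 0.01 µM. The treatment label was followed, and every H3K4me3 combination value below carries that doubt.

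RA binds nuclear receptors that open chromatin at target genes, and in promyelocytic cells it also engages the interferon response. IRF1 is a transcription factor that interferon gamma induces and that binds interferon-stimulated response elements in other genes. IFIT3 is an antiviral protein induced through such elements, TNFSF10 encodes the death ligand TRAIL, CCL2 is a chemokine for monocytes, ICAM1 is an adhesion molecule that leukocyte integrins bind, and TNFAIP2 is a cytokine- and RA-responsive gene. H3K4me3 marks active promoters, H3K4me1 marks enhancers and their flanks, H3K4me2 occurs at both, and H3K27ac marks active promoters and enhancers. LSD1 removes methyl groups from mono- and dimethylated H3K4, and GFI1 is a repressor that recruits it to DNA.

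The sequences just upstream of the transcription starts are shown because some hold matches to elements through which genes of this group are classically regulated. They come from RefSeq on GRCh38.p14 and give the 250 bases upstream of each start, 5′ to 3′ on the gene's strand. RefSeq entries were found for 5 of the 6 genes, with 2 starts for IFIT3, and CCL2 had no entry in the table used. Capitals mark matches on either strand to 3 short motifs: GAAANNGAAA (interferon-stimulated response element), TTCNNNGAA (gamma-activated site) and GGAAANTCC (NF-kappaB site).
IRF1, chr5:132490774-132491023, minus strand: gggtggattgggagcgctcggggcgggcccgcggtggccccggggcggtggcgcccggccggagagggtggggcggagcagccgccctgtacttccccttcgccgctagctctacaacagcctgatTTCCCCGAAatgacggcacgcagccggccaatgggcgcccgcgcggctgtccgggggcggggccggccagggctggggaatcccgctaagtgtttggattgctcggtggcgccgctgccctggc
IFIT3, upstream start, chr10:89327747-89327996, plus strand: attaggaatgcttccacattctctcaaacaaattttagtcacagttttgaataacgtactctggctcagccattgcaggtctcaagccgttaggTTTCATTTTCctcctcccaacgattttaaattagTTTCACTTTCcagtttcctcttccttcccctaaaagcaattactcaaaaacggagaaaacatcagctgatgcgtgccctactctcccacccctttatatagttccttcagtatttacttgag
IFIT3, downstream start, chr10:89332279-89332528, plus strand: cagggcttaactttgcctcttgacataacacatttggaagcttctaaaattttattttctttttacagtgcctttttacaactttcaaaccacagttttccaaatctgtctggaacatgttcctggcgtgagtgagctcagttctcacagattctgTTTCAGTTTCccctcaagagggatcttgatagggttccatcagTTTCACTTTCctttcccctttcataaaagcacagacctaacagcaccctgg
TNFSF10, chr3:172523431-172523680, minus strand: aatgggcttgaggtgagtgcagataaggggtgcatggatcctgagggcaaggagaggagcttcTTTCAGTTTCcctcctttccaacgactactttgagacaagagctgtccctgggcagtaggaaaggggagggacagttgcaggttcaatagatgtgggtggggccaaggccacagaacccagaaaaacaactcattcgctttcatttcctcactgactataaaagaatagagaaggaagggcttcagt
ICAM1, chr19:10270870-10271119, plus strand: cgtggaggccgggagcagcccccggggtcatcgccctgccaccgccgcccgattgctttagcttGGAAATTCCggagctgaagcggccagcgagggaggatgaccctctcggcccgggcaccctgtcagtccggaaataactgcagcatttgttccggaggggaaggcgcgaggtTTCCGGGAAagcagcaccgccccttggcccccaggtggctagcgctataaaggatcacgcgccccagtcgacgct
TNFAIP2, chr14:103123211-103123460, plus strand: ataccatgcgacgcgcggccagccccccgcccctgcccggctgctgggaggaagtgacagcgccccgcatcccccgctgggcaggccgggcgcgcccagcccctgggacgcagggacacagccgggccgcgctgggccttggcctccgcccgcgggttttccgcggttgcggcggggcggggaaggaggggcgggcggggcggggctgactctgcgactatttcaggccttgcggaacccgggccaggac

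Among 35116 promoters of the same length, GAAANNGAAA occurred in 3.02%, TTCNNNGAA in 6.57% and GGAAANTCC in 1.45%. Each IFIT3 start had a pair of GAAANNGAAA matches, all on the opposite strand and therefore seen as the reverse complement in the lines above. TNFSF10 had 1 such match, TTTCAGTTTC, at 187 to 178 bases upstream of its start. IRF1 had TTCCCCGAA at 124 to 116 bases upstream, and ICAM1 had TTCCGGGAA at 75 to 67 bases upstream. GGAAATTCC stood in the ICAM1 sequence at 186 to 178 bases upstream. TNFAIP2 held none of these letters. A direct repeat of the retinoic acid receptor element, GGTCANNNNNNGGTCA, occurred in 0.0456% of promoters and in none of the 6 sequences, and the GFI1 core AATCACNGC occurred in 0.906% and in none of the 6. The motif letters were chosen with these sequences known, and a match is a description of the letters only. Peak positions below are on hg18, so they were not laid over these GRCh38.p14 sequences.

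Windows hold neighbours as well as the named gene, and gene positions on hg18 were not used here. In the RefSeq gene order, IRF1 lies between SLC22A5 and IL5, IFIT3 between IFIT2 and IFIT1B, TNFSF10 between GHSR and NCEH1, CCL2 between ASIC2 and CCL7, ICAM1 between MRPL4 and ICAM4, and TNFAIP2 between EXOC3L4 and EIF5 apart from uncharacterised loci. A peak is therefore given by its window and not assigned to a promoter. Covered length means bases of a window under at least 1 peak. A peak's score is the caller's significance score, at least 50 in the histone and GFI1 lists and with many peaks tied at 3100, and it was ranked only within its own list. The lists held between 12562 and 72810 peaks. The longest H3K27ac list, RA 0.01 µM with 55793 peaks against 32789 with DMSO, stood apart from the others of that mark. The LSD1 lists had been filtered before deposit, since their lowest scores were 234 with DMSO and 357 with MC_2580.

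Across the 6 windows, H3K4me2 and H3K4me3 were broader with each RA-containing treatment than with DMSO, and H3K27ac was broader in most windows with RA 1 µM and the combination and narrower in most with MC_2580 alone and with RA 0.01 µM. H3K4me3 covered 47.7 kb with DMSO, 77.6 kb with MC_2580, 94.1 kb with RA 0.01 µM, 90.4 kb with RA 1 µM and 89.9 kb with the combination. All 4 treated libraries exceeded DMSO in all 6 windows. The ratios to DMSO were 1.63, 1.97, 1.90 and 1.88, beside 1.57, 1.5, 1.33 and 1.32 over the whole lists, so the MC_2580 ratio was near that of its list. H3K4me2 covered 43.0 kb with DMSO, 48.3 kb with MC_2580, 65.3 kb with RA 0.01 µM, 65.1 kb with RA 1 µM and 81.4 kb with the combination. Its ratios were 1.12, 1.52, 1.51 and 1.89, while over the whole lists they were 1.05, 0.94, 0.92 and 1.08. The combination widened H3K4me2 in 6 of 6 windows, and every other treatment did so in 5 of 6.

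H3K27ac covered 101.7 kb with DMSO, 62.4 kb with MC_2580, 112.5 kb with RA 0.01 µM, 122.9 kb with RA 1 µM and 171.6 kb with the combination. The ratios were 0.61, 1.11, 1.21 and 1.69, beside 0.75, 1.56, 1.12 and 1.17 over the whole lists. RA 1 µM and the combination were each wider than DMSO in 5 of 6 windows. RA 0.01 µM was wider in 2 of 6 and narrower in 4, so its summed ratio of 1.11 came from TNFAIP2 (2.01) and IRF1 (1.16). That ratio was 1.0 with lists of equal length and 1.45 with a minimum score of 100. The combination value rests on ICAM1: without that window its ratio was 1.21, the same as RA 1 µM. With MC_2580 alone 5 of 6 windows were narrower, and without the CCL2 window that ratio was 0.84. H3K4me1 moved least, covering 137.0 kb, 138.1 kb, 142.6 kb, 150.9 kb and 163.9 kb in the same order of conditions. Its RA ratios of 1.04 and 1.10 and its combination ratio of 1.20 stood beside 0.79, 0.88 and 1.04 over the whole lists. How much of these differences comes from the depth of single libraries was not tested.

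**Figure D1:**
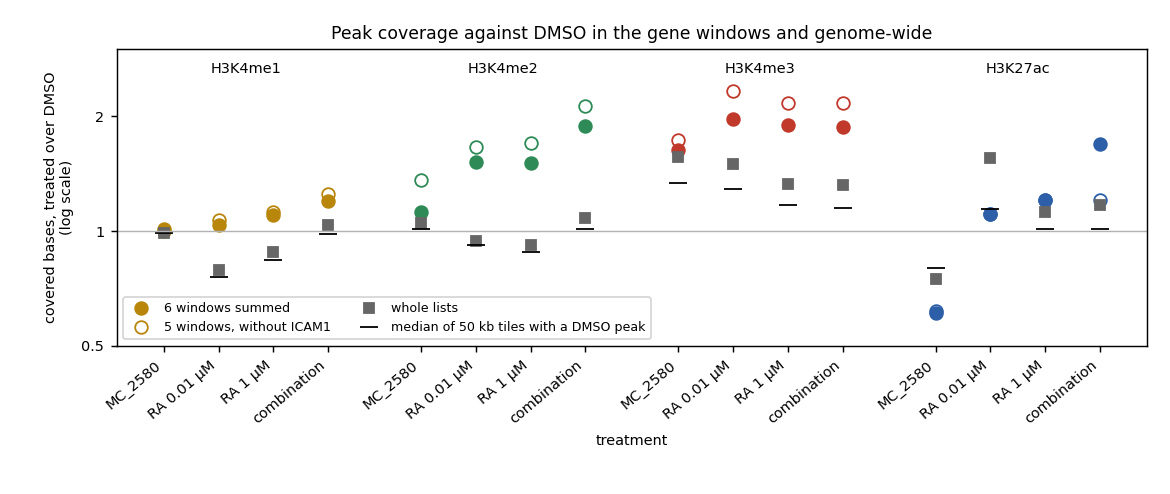
Covered bases with each treatment over DMSO (vertical axis, log scale), by histone mark and treatment (horizontal axis). Filled circles are the 6 windows summed, open circles the same without ICAM1, squares the whole lists and dashes the median of 50 kb tiles with a DMSO peak. H3K4me2 circles for RA stand at 1.51 and 1.52 while the squares lie below 1, and the H3K27ac combination circle falls from 1.69 to 1.21 without ICAM1.

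**Figure D2:**
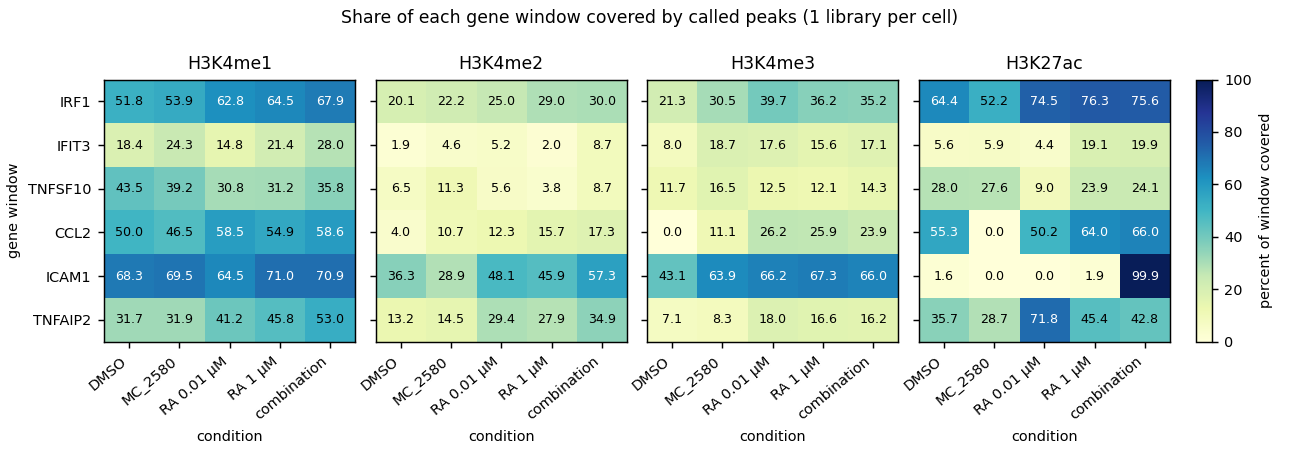
Percent of each gene window (rows) covered by called peaks in each condition (columns), with 1 panel per histone mark and 1 library per cell. CCL2 H3K4me3 goes from 0.0 with DMSO to 26.2 with RA 0.01 µM, IFIT3 H3K27ac from 5.6 with DMSO to 19.1 with RA 1 µM, and TNFSF10 H3K27ac drops to 9.0 in the RA 0.01 µM library only.

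New separate peaks were a larger share than over the whole lists for H3K4me1 and H3K4me2 in every RA-containing library, and not for H3K4me3. A peak was called gained where no DMSO peak of the same mark overlapped it by 1 base, and a DMSO peak was called lost where no treated peak did. In H3K4me2, 11 of 35 MC_2580 peaks in the windows were gained (31.4%, against 22.3% of the whole list), 16 of 35 with RA 0.01 µM (45.7% against 14.3%), 20 of 44 with RA 1 µM (45.5% against 22.1%) and 17 of 39 with the combination (43.6% against 23.2%). Of the 23 DMSO H3K4me2 peaks, 2 were lost with MC_2580 (8.7%, against 11.0% of the whole list), 4 with RA 0.01 µM (17.4% against 19.7%), 2 with RA 1 µM (8.7% against 19.5%) and 0 with the combination, where the list lost 14.4%. In H3K4me1, the gained peaks were 1 of 17 with MC_2580 (5.9% against 8.54%), 8 of 26 with RA 0.01 µM (30.8% against 11.7%), 6 of 24 with RA 1 µM (25.0% against 14.2%) and 9 of 24 with the combination (37.5% against 21.9%). Of the 20 DMSO H3K4me1 peaks, 1 was lost with each treatment (5.0%), where the lists lost 13.1% with MC_2580, 19.5% with RA 0.01 µM, 14.0% with RA 1 µM and 7.79% with the combination.

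H3K4me3 gained shares lay at or below those of the whole lists, apart from a small excess with RA 1 µM. They were 5 of 16 with MC_2580 (31.2% against 33.5%), 2 of 14 with RA 0.01 µM (14.3% against 29.2%), 4 of 14 with RA 1 µM (28.6% against 25.6%) and 3 of 13 with the combination (23.1% against 26.6%). None of the 13 DMSO H3K4me3 peaks was lost with any treatment, where the lists lost 2.2%, 3.97%, 6.12% and 6.29% in that order. As over the whole lists, most treated H3K4me3 peaks in these windows therefore lay at places already called with DMSO. CCL2, which had no DMSO peak, added new covered length. Without its window the coverage ratios were 1.51 with MC_2580, 1.7 with RA 0.01 µM, 1.62 with RA 1 µM and 1.63 with the combination. In H3K27ac, 0 of 13 peaks were gained with MC_2580 against 11.2% of the list, 4 of 15 with RA 0.01 µM (26.7% against 53.9%), 7 of 18 with RA 1 µM (38.9% against 33.3%) and 5 of 18 with the combination (27.8% against 37.1%). Of the 19 DMSO H3K27ac peaks, 6 were lost with MC_2580 (31.6% against 35.0%), 4 with RA 0.01 µM (21.1% against 18.3%), 2 with RA 1 µM (10.5% against 20.9%) and 2 with the combination (10.5% against 21.2%). The H3K27ac losses with MC_2580 and the gains with RA 1 µM were near the shares of the whole lists.

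Merging the 5 lists of each mark gave 97 regions in the windows, of which 44 were called in all 5 conditions. In 9 regions the mark was called in all 3 RA-containing lists and in neither DMSO nor MC_2580. These were 3 of 22 H3K4me1 regions (13.6%, against 3.66% of all merged regions of the mark), 4 of 40 H3K4me2 regions (10.0% against 1.97%), 1 of 13 H3K4me3 regions (7.7% against 1.85%) and 1 of 22 H3K27ac regions (4.5% against 5.44%). TNFAIP2 held 4 of the 9, ICAM1 and IRF1 held 2 each, CCL2 held 1, and IFIT3 and TNFSF10 held 0. With so few regions per mark these shares move by several points with a single region.

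At IRF1, the transcription factor of the group, all 4 marks were already called widely with DMSO and widened with RA. H3K4me3 covered 12.75 kb with DMSO, 18.29 kb with MC_2580, 23.83 kb with RA 0.01 µM, 21.70 kb with RA 1 µM and 21.13 kb with the combination. H3K27ac covered 38.66 kb, 31.33 kb, 44.73 kb, 45.75 kb and 45.34 kb in the same order. The 3 RA-containing values lay within about 1 kb of each other, above DMSO, and MC_2580 lay below it.

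The single H3K27ac region found in the RA-containing lists alone lay here, from 131846200 to 131848278, with scores of 123 with RA 0.01 µM, 122 with RA 1 µM and 124 with the combination. It sat where the DMSO library had no acetylated peak between 131844145 and 131850113. H3K4me1 covered 31.06 kb with DMSO, 32.34 kb with MC_2580, 37.67 kb with RA 0.01 µM, 38.70 kb with RA 1 µM and 40.76 kb with the combination, and H3K4me2 rose from 12.04 kb through 13.30 kb, 15.00 kb and 17.42 kb to 18.00 kb in that order. Both marks were therefore widest in the combination library and narrowest with DMSO. A short H3K4me2 region from 131826419 to 131827094 was called with RA 0.01 µM (score 71.5), RA 1 µM (score 163) and the combination (score 179) alone.

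At IFIT3, the antiviral effector, H3K27ac separated RA 1 µM and the combination from the other conditions. It covered 2.79 kb with DMSO, 2.93 kb with MC_2580, 2.21 kb with RA 0.01 µM, 9.57 kb with RA 1 µM and 9.93 kb with the combination. The main acetylated peak ended at 91079160 with DMSO, at 91078986 with MC_2580 and at 91078786 with RA 0.01 µM, and reached 91083941 with RA 1 µM and 91084708 with the combination. The added stretch overlapped the LSD1 peak from 91080831 to 91084243, in part with RA 1 µM and in full with the combination, and no acetylated peak of the other 3 libraries touched that site.

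That LSD1 peak was one of the strongest of its list, with a score of 2886 in DMSO, above 99.4% of all LSD1 peaks. The single GFI1 peak of the window, from 91082691 to 91084184, lay inside it with a score of 1941, above 99.8% of the GFI1 list. With MC_2580 the same LSD1 site scored 1160, above 76.0% of that list. A smaller region of H3K27ac from 91071753 to 91073317 was also limited to RA 1 µM (score 199) and the combination (score 145).

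H3K4me3 at IFIT3 did not follow acetylation. It covered 3.99 kb with DMSO, 9.35 kb with MC_2580, 8.82 kb with RA 0.01 µM, 7.80 kb with RA 1 µM and 8.54 kb with the combination, so MC_2580 and RA 0.01 µM alone were already at the wide level. In DMSO it was 2 peaks, with scores of 911 and 88.0, the weaker of them overlapping the LSD1 and GFI1 peaks. In each treated library a single peak spanned both places. H3K4me2 stayed narrow, at 0.97 kb, 2.32 kb, 2.62 kb, 1.00 kb and 4.34 kb from DMSO to the combination, and was called on the LSD1 site with MC_2580, RA 0.01 µM and the combination but not with DMSO or RA 1 µM. H3K4me1 covered 9.19 kb, 12.15 kb, 7.40 kb, 10.72 kb and 14.01 kb in that order.

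**Figure D3:**
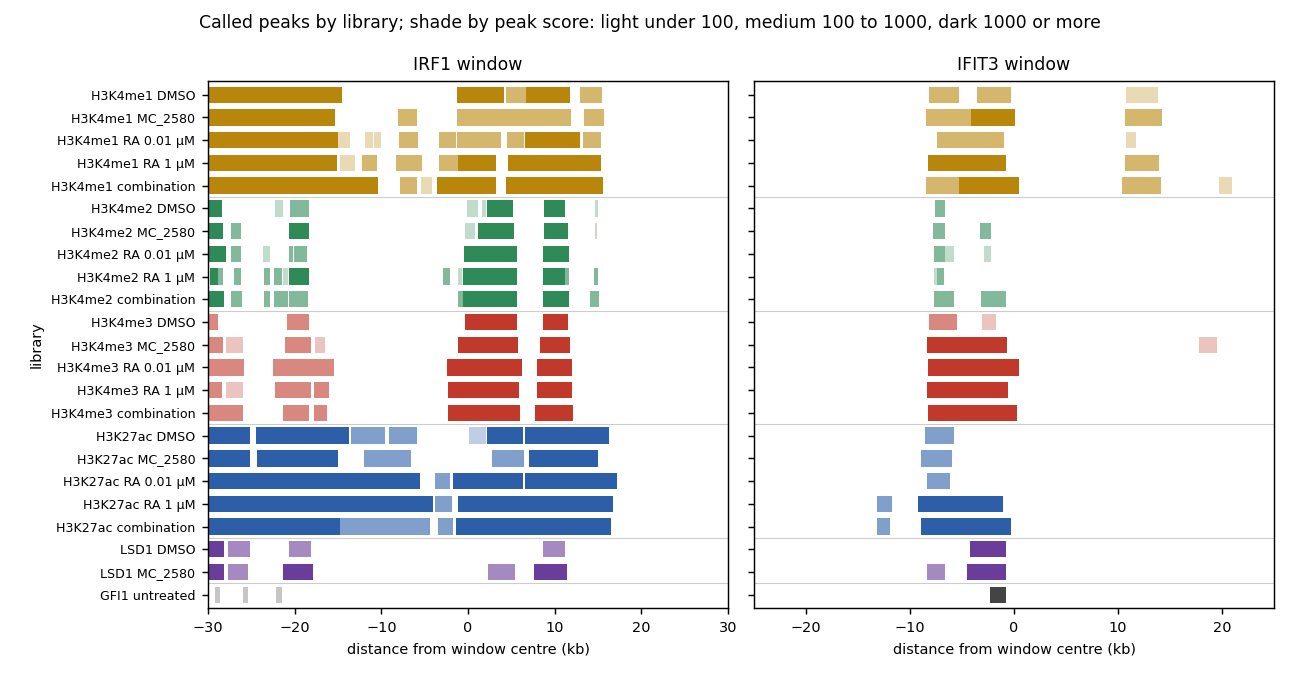
Called peaks in the IRF1 and IFIT3 windows (horizontal axis, distance from the window centre in kb) for each library (vertical axis), shaded by score. At IFIT3 the dark H3K27ac bars with RA 1 µM and the combination run over the place of the LSD1 and GFI1 peaks, and the shorter bars of DMSO, MC_2580 and RA 0.01 µM stop before it.

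TNFSF10, which encodes the death ligand TRAIL, showed no widening of acetylation with RA in these lists. H3K27ac covered 14.00 kb with DMSO, 13.78 kb with MC_2580, 4.49 kb with RA 0.01 µM, 11.93 kb with RA 1 µM and 12.03 kb with the combination. The strongest acetylated peak, in the region from 173722427 to 173726148, scored 1201 with DMSO, 584 with MC_2580, 2003 with RA 1 µM and 1677 with the combination, and was not called with RA 0.01 µM. A region from 173710896 to 173716632 was missing in the same library and scored 498, 305, 123 and 283 in the others. Both absences rest on the RA 0.01 µM library, the H3K27ac list that stood apart. H3K4me3 with RA 0.01 µM was called in the first of these regions at a score of 3100 and in the second at 79.7.

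H3K4me3 covered 5.85 kb with DMSO, 8.27 kb with MC_2580, 6.24 kb with RA 0.01 µM, 6.06 kb with RA 1 µM and 7.14 kb with the combination. MC_2580 was highest, and both RA doses were close to DMSO. H3K4me1, like H3K27ac, covered less than DMSO in every treated library, with 21.76 kb against 19.61 kb with MC_2580, 15.39 kb with RA 0.01 µM, 15.58 kb with RA 1 µM and 17.88 kb with the combination. H3K4me2 covered 3.23 kb, 5.64 kb, 2.78 kb, 1.92 kb and 4.35 kb in that order, so both libraries with MC_2580 lay above the other 3.

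CCL2, the monocyte chemokine, was the one window of the 6 without an H3K4me3 peak in DMSO. With MC_2580, 2 weak peaks with scores of 169 and 70.3 covered 5.57 kb, and a single peak of score 3100 covered 13.09 kb with RA 0.01 µM, 12.94 kb with RA 1 µM and 11.95 kb with the combination. The 3 RA-containing peaks lay on almost the same bases, between 29596486 and 29609854. The MC_2580 peaks fell inside that span.

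H3K27ac at CCL2 was broad and weak with DMSO, with a main peak of 25.4 kb and a score of 91.4, above 26.5% of its list. With MC_2580 no acetylated peak was called in the window. The same region scored 1844 with RA 0.01 µM, above 86.1% of that list, and 3100 with RA 1 µM and with the combination. Covered length was 27.63 kb with DMSO, 0 kb with MC_2580, 25.12 kb with RA 0.01 µM, 32.00 kb with RA 1 µM and 33.00 kb with the combination, so the length with RA 0.01 µM was below that with DMSO. Ranks come from lists of different lengths and do not measure a change.

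H3K4me1 covered the same broad region in every condition, 24.98 kb with DMSO, 23.25 kb with MC_2580, 29.25 kb with RA 0.01 µM, 27.44 kb with RA 1 µM and 29.32 kb with the combination. H3K4me2 covered 2.00 kb, 5.33 kb, 6.13 kb, 7.86 kb and 8.65 kb in that order. A short H3K4me1 region from 29611793 to 29613591 was called in the 3 RA-containing libraries only, with scores of 77.3, 84.2 and 273.

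**Figure D4:**
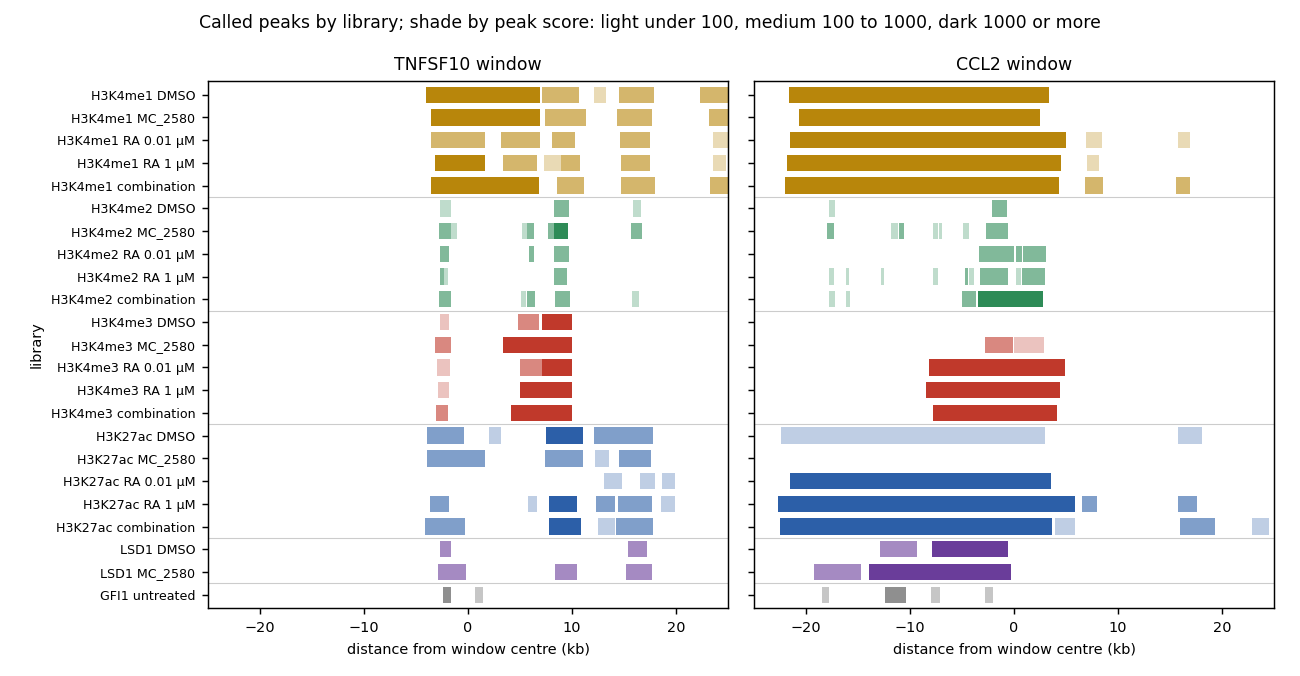
Called peaks in the TNFSF10 and CCL2 windows (horizontal axis, distance from the window centre in kb) for each library (vertical axis), shaded by score. At CCL2 the H3K4me3 row is empty with DMSO and dark in the 3 RA-containing rows, and the H3K27ac row is pale with DMSO and empty with MC_2580. At TNFSF10 the RA 0.01 µM H3K27ac row lacks the 2 strongest DMSO peaks.

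ICAM1, the adhesion molecule, combined wide H3K4 methylation with almost no acetylation called inside the window except in the combination library. H3K4me3 covered 21.54 kb with DMSO, 31.97 kb with MC_2580, 33.09 kb with RA 0.01 µM, 33.63 kb with RA 1 µM and 32.98 kb with the combination. DMSO left a gap between 10247729 and 10256980, and with RA 1 µM and the combination a single peak of 27.6 kb and 27.9 kb ran across it. The gap was also narrower in the other treated libraries, between 10253852 and 10254085 with RA 0.01 µM and between 10252589 and 10255210 with MC_2580. H3K4me2 with DMSO had a gap between 10244768 and 10255638. Inside it, regions from 10246087 to 10247487 and from 10249351 to 10252453 were called in the 3 RA-containing libraries and in neither of the others. Their scores were 138, 580 and 985 for the first region and 147, 346 and 1750 for the second, with RA 0.01 µM, RA 1 µM and the combination.

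H3K4me2 covered 18.14 kb with DMSO, 14.44 kb with MC_2580, 24.07 kb with RA 0.01 µM, 22.94 kb with RA 1 µM and 28.65 kb with the combination, and MC_2580 alone was below DMSO. H3K4me1 changed little, with 34.16 kb, 34.77 kb, 32.26 kb, 35.51 kb and 35.45 kb. H3K27ac covered 0.81 kb with DMSO, 0 kb with MC_2580 and RA 0.01 µM, and 0.96 kb with RA 1 µM, all at the window edges. These lengths depend on where the window ends. The RA 1 µM peak, of score 3100, ran on outside it, from 10269044 to 10285362. On the other side, a region from 10213053 to 10220813 scored 125 with DMSO, 511 with RA 0.01 µM, 148 with RA 1 µM and 192 with the combination. Its peaks with the 2 RA doses alone lay outside the window. With the combination, 1 peak of 64.1 kb and score 140 covered the window, for 49.93 kb in all. That score was above 41.1% of its list, and a peak so wide and so low in rank is a single call in 1 library.

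TNFAIP2, the cytokine- and RA-responsive gene, had an H3K4me1 domain that reached further at both ends in the RA-containing libraries than with DMSO or MC_2580. H3K4me3 covered 3.56 kb with DMSO, 4.16 kb with MC_2580, 9.02 kb with RA 0.01 µM, 8.28 kb with RA 1 µM and 8.12 kb with the combination. The main peak ended at 102661270 with DMSO and at 102661771 with MC_2580. In the 3 RA-containing libraries a further region from 102663400 to 102665864 was called, with scores of 778, 199 and 326.

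H3K4me1 was called on the same stretch, from 102663390 to 102665629, in the 3 RA-containing libraries only, with scores of 141, 316 and 523. The H3K4me2 peak there ran to 102661443 with DMSO and 102661239 with MC_2580, and to 102665056, 102665842 and 102666747 with RA 0.01 µM, RA 1 µM and the combination. H3K27ac overlapping that stretch did not follow the methylation marks. Its region from 102663621 to 102669224 was called with DMSO (score 94.3) and RA 0.01 µM (score 271) and in no other library. H3K4me2 as a whole covered 6.59 kb, 7.25 kb, 14.69 kb, 13.97 kb and 17.45 kb, and H3K4me1 15.86 kb, 15.97 kb, 20.61 kb, 22.92 kb and 26.50 kb. For all 3 methylation marks DMSO and MC_2580 were close to each other and every RA-containing library was above both.

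At the other end of the TNFAIP2 domain, the acetylated region from 102639336 to 102645473 scored 236 with DMSO, 178 with MC_2580, 3100 with RA 0.01 µM, 1291 with RA 1 µM and 2404 with the combination. H3K27ac covered 17.84 kb, 14.36 kb, 35.91 kb, 22.69 kb and 21.41 kb in that order. The RA 0.01 µM value came from the list that stood apart, and without it the RA-containing libraries were still above DMSO. An H3K4me1 region overlapping this end, from 102639535 to 102642470, was also called in the 3 RA-containing libraries only, with scores of 63.7, 154 and 233. The RA 0.01 µM peak was weak, above 10.8% of its list.

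**Figure D5:**
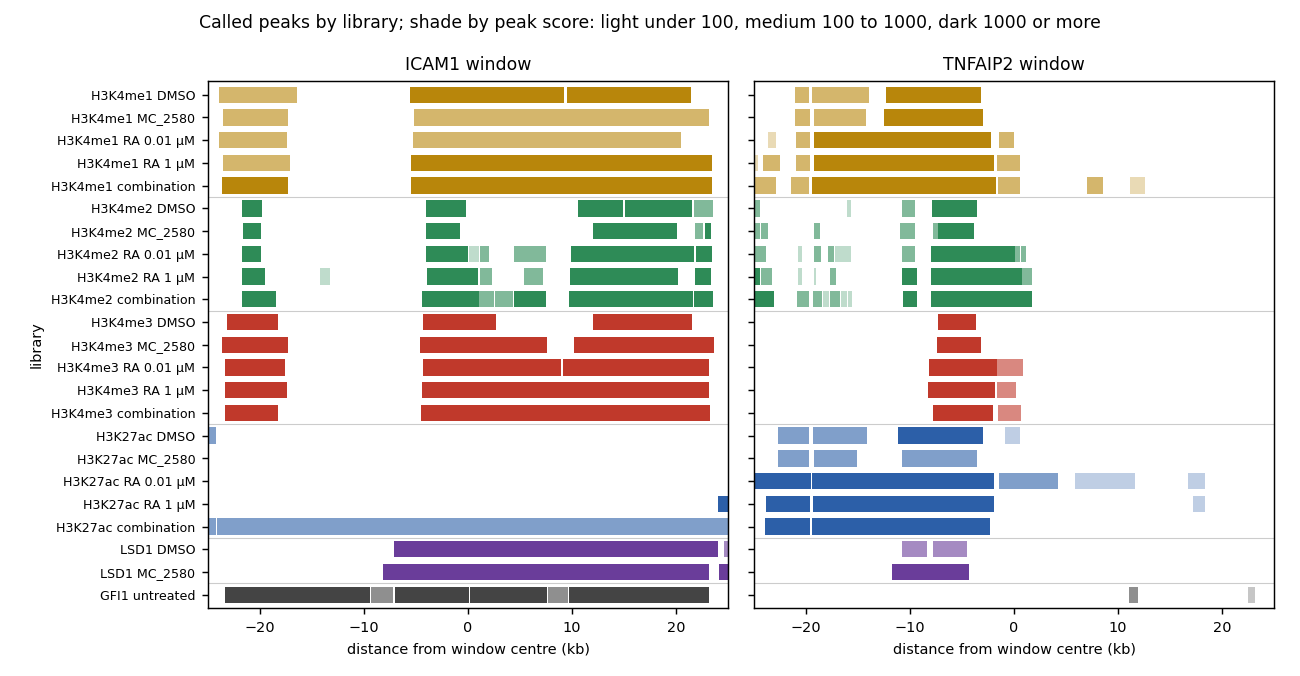
Called peaks in the ICAM1 and TNFAIP2 windows (horizontal axis, distance from the window centre in kb) for each library (vertical axis), shaded by score. GFI1 bars fill almost the whole ICAM1 window, and at TNFAIP2 the 3 RA-containing rows of each H3K4 methylation mark reach further right than DMSO and MC_2580.

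LSD1 was called in all 6 windows with DMSO, at 14 peaks, and none of the 14 was lost with MC_2580, where the whole list lost 7.79%. Of the 15 peaks with MC_2580, 4 had no DMSO counterpart (26.7%, against 41.4% of the list). They lay at CCL2 (29585823 to 29590284), IRF1 (131852285 to 131855429), IFIT3 (91076640 to 91078445) and TNFSF10 (173723410 to 173725499). The last 3 lay on H3K4me3 peaks of the DMSO library, and the CCL2 peak was the one that overlapped GFI1.

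LSD1 covered more bases with MC_2580 in 6 of 6 windows, 85.1 kb against 63.9 kb in all. The ratio of 1.33 was below that of the whole lists, 1.92. By window, in the order DMSO then MC_2580, the values were 10.92 kb and 18.07 kb at CCL2, 9.53 kb and 14.54 kb at IRF1, 5.63 kb and 7.36 kb at TNFAIP2, 3.41 kb and 5.52 kb at IFIT3, and 2.90 kb and 7.35 kb at TNFSF10. ICAM1 had the widest LSD1 cover, 31.48 kb with DMSO and 32.29 kb with MC_2580. The different score floors of these lists, 234 and 357, were not evened out.

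GFI1 had 18 peaks in the windows, and 11 of them overlapped an LSD1 peak of the DMSO library (61.1%, against 30.0% of the GFI1 list). ICAM1 gave 4 of these 11. Seen from LSD1, 9 of 14 DMSO peaks overlapped GFI1 (64.3% against 56.8%), a share near that of the list. ICAM1 held 6 GFI1 peaks that abutted over 46.02 kb, or 92.0% of the window, and 3 of them scored 3100. Of 14138 tiles of 50 kb with any GFI1 peak, 2 were covered as much, and the median tile had 1081 bases covered. The median width in the GFI1 list was 752 bases, whereas the widest ICAM1 peak had 13.9 kb. An LSD1 peak of 31.4 kb with MC_2580 and the combination H3K27ac peak of 64.1 kb overlapped the same stretch. The input samples were not examined there, so whether background signal adds to this breadth was not tested. At IRF1 the 3 GFI1 peaks were weak, with scores of 84.7, 51.4 and 72.5. TNFSF10 had GFI1 peaks of score 159 and 59.6, the stronger lying on an LSD1 peak.

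At CCL2 the strongest of 4 GFI1 peaks scored 447 and lay on LSD1. TNFAIP2 had 2 GFI1 peaks, with scores of 207 and 50.2, and neither touched an LSD1 peak. IFIT3 and ICAM1 were therefore the windows in which a GFI1 peak ranked above 99.8% of its list.

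The combination was set beside each RA dose. H3K4me1 covered 1.15 times and H3K4me2 1.25 times as much with the combination as with RA 0.01 µM, and 1.01 and 1.12 times with MC_2580 as with DMSO. Over the whole lists the same ratios were 1.31 and 1.15 to RA 0.01 µM, and 0.99 and 1.05 to DMSO. The H3K4me1 ratio to RA 0.01 µM was thus below that of the lists. Against RA 1 µM the combination ratios were 1.09 for H3K4me1, 1.25 for H3K4me2, 0.99 for H3K4me3 and 1.4 for H3K27ac. The H3K27ac value rests on ICAM1: without that window H3K27ac covered 121.7 kb with the combination and 121.9 kb with RA 1 µM. H3K27ac at IFIT3 was 4.49 times as wide with the combination as with RA 0.01 µM and 1.04 times as wide as with RA 1 µM. At TNFSF10 the same ratios were 2.68 and 1.01, and at IRF1 they were 1.01 and 0.99. At CCL2 they were 1.31 and 1.03. At TNFAIP2 the combination covered 0.60 times as much H3K27ac as RA 0.01 µM and 0.94 times as much as RA 1 µM. For acetylation in these 5 windows the combination thus covered between 0.94 and 1.04 times as much as RA 1 µM, whereas its ratio to RA 0.01 µM, the library that stood apart, ran in both directions.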

How the data were processed

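The deposited peak lists of 23 libraries were used, 1 per antibody and treatment. Per the submitters' processing notes, MACS 1.4.1 and Bowtie 1.0.1 were used with build hg18, beside FastQC (0.10.0 and 0.11.5), CASAVA 1.8 and bcl2fastq 2, with no role or order named. Each deposited list gives a position and a score per peak, and that score is the authors' own value. Read depth is unknown from these files, so no interval for counting error could be given, and the 2 input samples are not analysed here. The highest peak numbers in the LSD1 lists, 50877 and 72074, exceed the 12562 and 18822 peaks kept.

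Peaks overlapping a gene window by 1 base were taken, and 8 starts below 0 were set to 0. Peaks of a mark were merged where they overlapped. Covered bases, gained and lost peaks and overlaps were computed in pandas 2.3.3 and NumPy 2.4.6 under Python 3.11.15, with Matplotlib 3.10.9 for the plots, after being tested on simulated lists. All 6 genes were named, and in each window the regions whose presence differed between conditions and the highest-scoring peaks. No test was possible with 1 library per group. The alternatives were a minimum score, reciprocal overlap, joined peaks, equal list lengths and peak centres, plus leaving out a list or a window. The genes, windows and motifs were chosen with earlier results of these data known.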

Additional observations from a re-analysis of the deposited data

Results flagged for a closer look

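In 2 marks MC_2580 moved the covered length of the 6 windows one way without RA and the other way with RA 0.01 µM. H3K4me3 covered 1.63 times as much with MC_2580 as with DMSO, and 0.96 times as much with the combination as with RA 0.01 µM. Over the whole lists the same ratios were 1.57 and 0.88, so the change of direction was not particular to the windows. Without the ICAM1 window they were 1.74 and 0.93. The H3K4me3 combination library is the one whose title and treatment field give different RA doses. H3K27ac went the other way, with 0.61 times as much with MC_2580 as with DMSO and 1.53 times as much with the combination as with RA 0.01 µM. Over the whole lists both H3K27ac ratios were 0.75, so the change of direction was absent there. In the windows the second ratio was 1.08 without the ICAM1 window and 1.59 without the CCL2 window, where the first was 0.62 and 0.84. With a minimum score of 100 the first ratio was 0.878. The second is taken against the RA 0.01 µM library, the H3K27ac list that stood apart. By window it ran from 0.60 at TNFAIP2 to 4.49 at IFIT3, and ICAM1 had no called bases with RA 0.01 µM. Each ratio compares 2 single libraries, and the difference was not tested.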

How the results depend on the processing

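No paired analysis was possible because each antibody and treatment had 1 library. Over the 4 histone marks, the windows held 17, 30, 37 and 34 gained peaks with MC_2580, RA 0.01 µM, RA 1 µM and the combination, and 9, 9, 5 and 3 lost peaks. Whole-list shares are given above by mark only, so these pooled counts and those under the alternatives do not show an excess. With 50% reciprocal overlap the gained peaks were 27, 47 and 64 with MC_2580, RA 0.01 µM and RA 1 µM, and the lost peaks were 21, 31, 38 and 31 with all 4 treatments, since peaks that changed width then count as different. With peaks joined within 1 kb the gained peaks were 10, 13, 18 and 11, and RA-only regions were 0 for H3K4me2, H3K4me3 and H3K27ac, because neighbouring peaks fuse. With a minimum score of 100 GFI1 had 10 peaks in place of 18, RA 0.01 µM gained 19, the lost peaks were 1, 4, 1 and 0, and RA-only regions were 1 for H3K4me1 and 2 for H3K27ac. With lists of equal length the gained peaks were 9 with MC_2580 and 24 with RA 1 µM, and RA-only H3K27ac regions were 0; the cause was not tested. Added after seeing the data, reading the pattern without the RA 0.01 µM list or without the combination list gave 3 RA-only H3K27ac regions each, and leaving out the ICAM1 or the CCL2 window moved none of 16 coverage ratios by 1.5 times. Taking peaks by their centre moved none of 31 values by that much. The H3K27ac ratio for RA 0.01 µM was 1.0 with lists of equal length in place of 1.11, and no other coverage ratio turned to the other side of 1 under the alternatives run. With a minimum score of 100 the H3K27ac ratios were 0.878 with MC_2580, 1.45 with RA 0.01 µM, 1.72 with RA 1 µM and 2.4 with the combination. The DMSO peaks at CCL2, with scores of 91.4 and 98.0, fall below that minimum. Covered length depends on where a caller ends a peak, and depth per library is unknown.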
